A study of Mus musculus with 28 samples.

Results

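Oxidative phosphorylation genes were followed in RNA-seq libraries of mouse embryonic stem cells (ESCs). The members were all rows of the deposited table whose symbol starts with mt- or names a subunit or assembly factor of the respiratory complexes by the prefixes Nduf, Sdh, Uqcr, Cox4 to Cox8 or Atp5. They numbered 132 of 17342 genes. Of these, 101 are encoded in the nucleus: 83 are subunits (37 of complex I, 4 of complex II, 8 of complex III, 17 of complex IV and 17 of complex V), 12 are assembly factors and 6 are pseudogene or copy rows. The other 31 are encoded in the mitochondrial genome: 13 protein genes and 18 transfer RNAs (tRNAs). All 132 passed the filter on low values. The cells were V6.5 ESCs, a male line of mixed 129 and C57BL/6 origin, wild type (Tet2-WT, 3 independent ESC samples), carrying a Tet2 mutation that the labels do not describe (Tet2-Mut, 2 clones) or labelled as Tet2 knockout (Tet2-KO, 2 clones). All groups were grown in serum and LIF, had been kept on feeder cells, were pre-plated to remove them and held on gelatin overnight. Tet2 oxidizes 5-methylcytosine in DNA. The design gives 3 comparisons, each altered genotype against Tet2-WT and the altered genotypes against each other. No respiration, protein level or mitochondrial DNA content was measured in these libraries.

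Complexes I to IV pass electrons from NADH and succinate to oxygen, complexes I, III and IV pump protons across the inner mitochondrial membrane, and complex V, the ATP synthase, uses the resulting gradient to make ATP. Complex II is built from nuclear genes alone, while the other complexes combine nuclear subunits with core proteins encoded in mitochondrial DNA, which is transcribed from both strands as long precursors from which the tRNAs are cut. ESCs in serum and LIF use both glycolysis and oxidative phosphorylation.

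The recovered totals were 41.9 M to 58.5 M counts assigned to genes. Of the recovered counts from 1 to 20, 72.1% to 75.2% were even, so the mates of a read pair may have been counted separately, and the totals may exceed the number of fragments. Values are normalised counts, the reads of a gene divided by 1 size factor per library, and are given in the order of the replicate numbers. Tet2 was 10340, 10240 and 12070 in Tet2-WT, 9992 and 13180 in Tet2-Mut and 4624 and 5206 in Tet2-KO, both Tet2-KO clones lying below all other libraries (log2 fold change against Tet2-WT -1.15 ± 0.12 (SE), adjusted p = 0.00522, limma). A mean of 4915 remained in Tet2-KO against 10890 in Tet2-WT, so the gene's transcript was reduced and not absent. The 12 ESC markers were all present. Limma called Tdgf1 and Lin28a in Tet2-KO against Tet2-WT, 1 of them higher and 1 lower (5.91% of all genes were called). It called Nanog lower in Tet2-Mut than in Tet2-WT (3.43%), where edgeR called 0, and Lin28a higher in Tet2-KO than in Tet2-Mut (6.19%). Of 20 fibroblast (feeder) markers 17 were in the table. Their summed value was 14546 to 15011 in Tet2-WT, 14520 and 14811 in Tet2-Mut, and 28535 and 19962 in Tet2-KO. Their median log2 difference from the Tet2-WT mean was -0.07 to 0.12 in Tet2-WT, 0.50 and 0.18 in Tet2-Mut and 1.13 and 0.61 in Tet2-KO. Against Tet2-WT, 4 of the 17 were called higher in Tet2-KO, where 3.0% of all genes were, and 0 were called in Tet2-Mut. None of those 17 was at 0, and in bulk RNA more cells of a type and more RNA per cell cannot be told apart. No erythroid marker of 6 was in the table.

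The nuclear genes of the respiratory complexes were at nearly the same level in all 3 genotypes. Against Tet2-WT, 0 of the 83 subunits were called in Tet2-KO (limma, Benjamini-Hochberg adjusted p under 0.05 over all genes tested; before adjustment 5 were under 0.05), where 5.91% of all 17338 genes tested were called (3.0% higher and 2.91% lower). Among the same 83, edgeR called 0 and DESeq2 called 3 in that comparison (Uqcrh higher, Cox7a1 and Cox4i1 lower). In Tet2-Mut against Tet2-WT 1 subunit was called higher, Ndufb7, beside 3.43% of all genes (1.44% higher and 1.98% lower), and in Tet2-KO against Tet2-Mut 2 were called lower, Ndufb7 and Cox4i1, beside 6.19% of all genes (2.64% higher and 3.55% lower). The median log2 fold change of the 83 was -0.03, 0.04 and -0.06 in these comparisons, and that of all genes 0.00, 0.01 and 0.00. The value of 0.04 changed sign, to -0.01, when the libraries were scaled to the total of the nuclear genes.

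The data bound the size of any change in most subunits. The 95% interval of the log2 fold change lay within ±0.5 for 72 of the 83 subunits in Tet2-KO against Tet2-WT, for 73 in Tet2-Mut against Tet2-WT and for 68 in Tet2-KO against Tet2-Mut. Over all 132 members, 1, 3 and 3 were called in the comparisons. EdgeR's quasi-likelihood test on the recovered reads called 1, 3 and 2 members, and DESeq2 8, 7 and 5. In Tet2-KO, 4 of the 83 subunits lay above and 9 below all Tet2-WT libraries, against 21.9% and 22.8% of all genes. In Tet2-Mut 18 lay above and 6 below, against 20.9% and 19.8%, and in Tet2-KO 2 lay above and 18 below both Tet2-Mut clones, against 23.3% and 21.5%. The comparisons with Tet2-WT share its libraries, so their values stand side by side below and are not counted as repeats of each other.

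**Figure D1:**
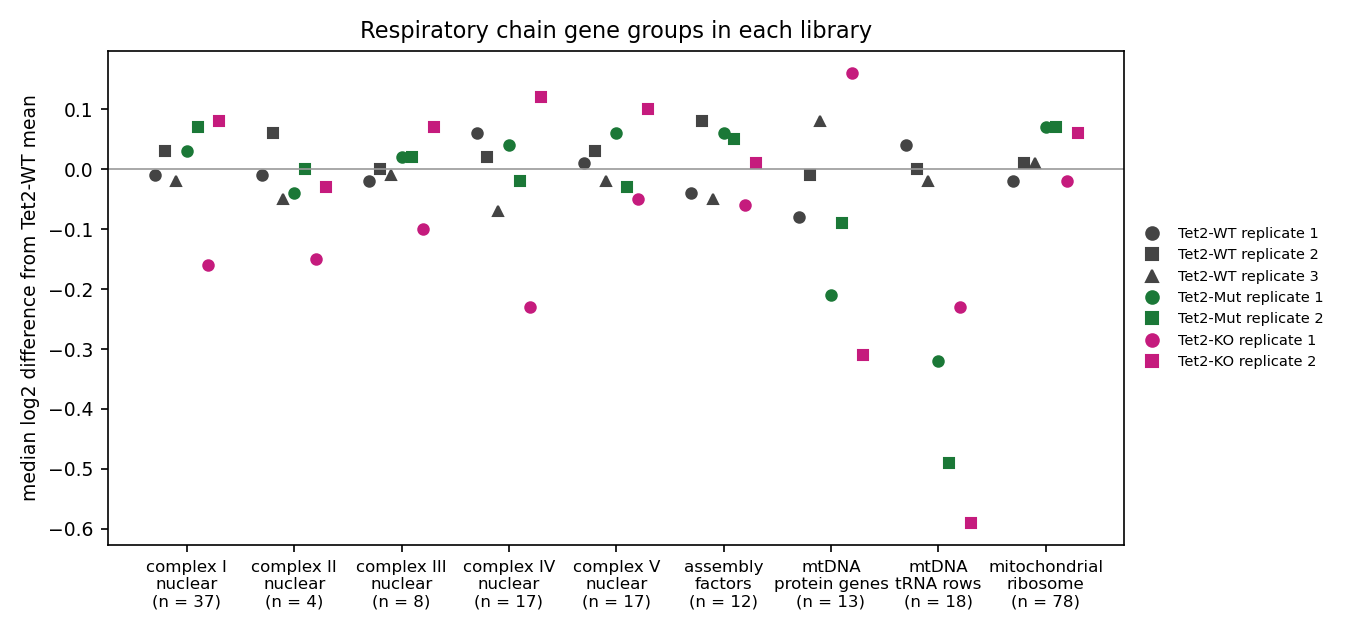
Median log2 difference from the Tet2-WT mean (y axis) of 9 gene groups (x axis, with the number of genes) in each of the 7 libraries, 1 point per library. The nuclear complexes lie between -0.23 and 0.12 in all libraries, while the tRNA rows of mitochondrial DNA (mtDNA) lie between -0.59 and -0.23 in the Tet2-Mut and Tet2-KO clones and between -0.02 and 0.04 in Tet2-WT.

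The upstream sequences of 4 nuclear members are shown to set a called member beside level ones. Ndufb7 is shown as a subunit that was called, Cox6a1 and Sdhd as subunits at level values with matches to both of the motifs below, and Cox7a1 as a muscle isoform that was low. Each is the 250 bases before the RefSeq gene start in GRCm38.p6, the mm10 build, 5′ to 3′ on the gene's strand, with matches to the NRF1 motif (GCGC, any base, TGCGC) or the ETS motif CCGGAAG, on either strand, in capitals. The windows are chr8:83566508-83566757 (plus strand) for Ndufb7, chr5:115348959-115349208 (minus) for Cox6a1, chr9:50603850-50604099 (minus) for Sdhd and chr7:30183921-30184170 (plus) for Cox7a1.
Ndufb7: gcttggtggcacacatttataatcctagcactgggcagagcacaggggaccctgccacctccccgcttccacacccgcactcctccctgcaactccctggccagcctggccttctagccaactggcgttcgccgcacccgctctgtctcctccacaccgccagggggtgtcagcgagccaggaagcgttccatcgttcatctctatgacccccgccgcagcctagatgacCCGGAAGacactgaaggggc
Cox6a1: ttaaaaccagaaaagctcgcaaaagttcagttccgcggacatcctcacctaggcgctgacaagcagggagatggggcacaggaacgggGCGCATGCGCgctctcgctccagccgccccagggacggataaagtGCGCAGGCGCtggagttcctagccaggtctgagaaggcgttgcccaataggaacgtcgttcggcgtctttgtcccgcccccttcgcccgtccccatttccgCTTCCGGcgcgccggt
Sdhd: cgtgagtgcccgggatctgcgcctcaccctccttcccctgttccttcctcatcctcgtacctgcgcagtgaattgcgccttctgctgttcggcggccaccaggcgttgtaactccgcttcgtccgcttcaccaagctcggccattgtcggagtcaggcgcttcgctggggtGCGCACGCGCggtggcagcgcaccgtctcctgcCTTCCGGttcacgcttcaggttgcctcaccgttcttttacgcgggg
Cox7a1: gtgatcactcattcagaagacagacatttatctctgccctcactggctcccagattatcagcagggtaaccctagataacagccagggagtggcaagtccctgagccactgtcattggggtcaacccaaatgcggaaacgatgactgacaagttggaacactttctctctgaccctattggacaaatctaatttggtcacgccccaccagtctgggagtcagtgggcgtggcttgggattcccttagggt
NRF1 and the ETS factor GABP are known activators of respiratory chain genes. Promoter entries existed for 80 of the 95 nuclear subunits and assembly factors. The NRF1 motif was in 14 of the 80 (17.5%), against 8.36% of the promoters of all genes in the table, and the ETS motif in 16 (20.0%), against 14.4%. The motif of YY1, AAGATGGCG, was in 1 of the 80, Atp5j, against 1.26%. The ETS match of Ndufb7 starts 20 bases before the gene start, and no NRF1 or ETS match was found in the window of Cox7a1. A match of letters describes the window and shows no binding.

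Complex I, the NADH dehydrogenase that starts the chain, had 37 nuclear subunits in the table, with median log2 fold changes of -0.04 (Tet2-KO against Tet2-WT), 0.04 (Tet2-Mut against Tet2-WT) and -0.06 (Tet2-KO against Tet2-Mut). Ndufs1, the largest iron-sulfur subunit, was 6523, 7017 and 7117 in Tet2-WT, 7449 and 7966 in Tet2-Mut and 7079.6 and 6814 in Tet2-KO. Both Tet2-Mut clones were above Tet2-WT for Ndufs1, by 0.16 ± 0.07 (SE), adjusted p = 0.217 on the log2 scale, which did not pass. Ndufv3, an accessory subunit of the NADH-oxidizing module, was 2954, 2904 and 2354 in Tet2-WT, 2311 and 1785 in Tet2-Mut and 2254 and 2777 in Tet2-KO. Tet2-Mut lay below Tet2-WT (log2 fold change -0.42 ± 0.15 (SE), adjusted p = 0.148), with Tet2-Mut replicate 2 the lowest of the 7 libraries, and without Tet2-Mut replicate 1 the gene passed (-0.61, adjusted p = 0.0285).

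Ndufb7, an accessory subunit of the membrane arm (chromosome 8, 83566758 to 83571623), was 2665, 2744 and 2834 in Tet2-WT, 3489.8 and 3651 in Tet2-Mut and 2459 and 2818 in Tet2-KO. Both Tet2-Mut clones were above every other library, and Tet2-KO overlapped Tet2-WT. It was higher in Tet2-Mut than in Tet2-WT (log2 fold change 0.38 ± 0.08 (SE), adjusted p = 0.0439) and lower in Tet2-KO than in Tet2-Mut (-0.44 ± 0.09 (SE), adjusted p = 0.0238). Leaving out Tet2-WT replicate 1, 2 or 3 or Tet2-Mut replicate 2 ended both calls, and leaving out Tet2-KO replicate 1 ended the second, with log2 fold changes of 0.35 to 0.41 and -0.54 to -0.34 over the libraries left out. Ndufa13, also called GRIM-19 (chromosome 8, 69894163 to 69902558), was 2077, 2293 and 2320.3 in Tet2-WT, 2899.8 and 3057 in Tet2-Mut and 1949 and 2489.6 in Tet2-KO. It had the same order of groups and did not pass in Tet2-Mut against Tet2-WT (0.42 ± 0.11 (SE), adjusted p = 0.075) or in Tet2-KO against Tet2-Mut (-0.43 ± 0.12 (SE), adjusted p = 0.0727). Without a Tet2-KO clone it passed in the former (adjusted p = 0.0307 and 0.0317 with replicate 1 or 2 left out), and with the second left out it passed in the latter (-0.61, adjusted p = 0.02).

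Complex II, succinate dehydrogenase, also works in the citric acid cycle. Its 4 subunits had log2 fold changes between -0.16 and 0.11 in all 3 comparisons, and all 12 intervals lay within ±0.5. The flavoprotein Sdha was 12953, 12839 and 12745 in Tet2-WT, 12849 and 13404 in Tet2-Mut and 12235 and 11922 in Tet2-KO, and both Tet2-KO clones were below the other libraries (-0.09 ± 0.06 (SE), adjusted p = 0.389, against Tet2-WT). The iron-sulfur subunit Sdhb was 3874, 3901 and 3728 in Tet2-WT, 3442 and 3505 in Tet2-Mut and 3250.3 and 3865 in Tet2-KO, and the membrane anchor Sdhd was 3672, 4081 and 3616 in Tet2-WT, 3949 and 3989 in Tet2-Mut and 3889 and 4302 in Tet2-KO. Neither passed in any comparison.

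Complex III passes electrons from ubiquinol to cytochrome c. None of its 8 nuclear subunits was called by limma or edgeR (2, 0 and 2 were under 0.05 unadjusted), while DESeq2 called Uqcrh higher in Tet2-KO than in Tet2-WT and Uqcrc1 lower in Tet2-KO than in Tet2-Mut. Their medians were -0.01, 0.05 and -0.02. Uqcrc1, a core subunit, was 15134, 15392 and 16056 in Tet2-WT, 15783 and 17331 in Tet2-Mut and 13588 and 14069 in Tet2-KO. Both Tet2-KO clones were below all other libraries (log2 fold change -0.17 ± 0.06 (SE), adjusted p = 0.161 against Tet2-WT and -0.26 ± 0.07 (SE), adjusted p = 0.0675 against Tet2-Mut). Without Tet2-Mut replicate 1 the second comparison passed (-0.33, adjusted p = 0.0186). Uqcrh, the hinge protein of the complex (chromosome 4, 116066965 to 116075070), was 3007, 3465 and 3203 in Tet2-WT, 3580.4 and 3255 in Tet2-Mut and 4621 and 3786 in Tet2-KO. Here both Tet2-KO clones were above all other libraries (log2 fold change against Tet2-WT 0.38 ± 0.10 (SE), adjusted p = 0.0654), and leaving out Tet2-Mut replicate 1, Tet2-Mut replicate 2 or Tet2-KO replicate 2 brought the gene past the test (adjusted p = 0.0339, 0.0348 and 0.0277).

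Complex IV, cytochrome c oxidase, reduces oxygen to water, and several of its nuclear subunits exist as a common and a tissue-restricted isoform. Cox4i1, the common form of the subunit through which ATP inhibits the enzyme (chromosome 8, 120668225 to 120674209), was 23188, 22959 and 21905 in Tet2-WT, 23871 and 24195 in Tet2-Mut and 15359 and 20238 in Tet2-KO. Both Tet2-KO clones were below the other 5 libraries. It was called lower in Tet2-KO than in Tet2-Mut (log2 fold change -0.45 ± 0.11 (SE), adjusted p = 0.0499), with the adjusted p just under the threshold, and not against Tet2-WT (-0.36 ± 0.10 (SE), adjusted p = 0.0701). The call ended without Tet2-WT replicate 1, 2 or 3, Tet2-Mut replicate 2 or Tet2-KO replicate 1, and the log2 fold change ran from -0.65 without the second Tet2-KO clone to -0.25 without the first. Of 12 other settings it held in 3, and it was lost with edgeR (adjusted p = 0.0639), upper quartile scaling (0.058), a pseudocount of 0.5 (0.0509) and 6 more. Without the second clone, the difference from Tet2-WT also passed (-0.56, adjusted p = 0.00513). The small subunit Cox7c was 10442, 10098 and 9085 in Tet2-WT, 11264 and 11195 in Tet2-Mut and 9011 and 10527 in Tet2-KO, with both Tet2-Mut clones highest (0.19 ± 0.09 (SE), adjusted p = 0.25).

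The restricted isoforms of complex IV spread widely between libraries. Their median difference from the Tet2-WT mean was 0.24, 0.00 and -0.22 in Tet2-WT, -0.10 and -0.48 in Tet2-Mut and -0.78 and -0.56 in Tet2-KO, so Tet2-Mut overlapped Tet2-WT. All 5 in the table (Ndufa4l2, Cox7a1, Cox4i2, Cox6b2 and Cox7b2) had negative log2 fold changes against Tet2-WT in both genotypes, with medians of -0.48 in Tet2-KO and -0.17 in Tet2-Mut, 2 of the 5 lay below all Tet2-WT libraries in each genotype, and 0 of the 5 were called by limma in any comparison (2, 1 and 0 had an unadjusted p under 0.05; edgeR also called 0, and DESeq2 called Cox7a1 lower in Tet2-KO than in Tet2-WT). Ndufa4l2, a relative of the complex IV subunit Ndufa4 that is known to be induced by low oxygen (chromosome 10, 127509274 to 127517154), was 1698, 1127 and 821 in Tet2-WT, 374 and 41.5 in Tet2-Mut and 63 and 404 in Tet2-KO. All 4 Tet2-Mut and Tet2-KO clones were below all 3 Tet2-WT libraries, but the clones of each genotype differed widely, as did the Tet2-WT libraries. The log2 fold change was -2.85 ± 0.92 (SE), adjusted p = 0.105 in Tet2-KO and -3.21 ± 0.92 (SE), adjusted p = 0.0936 in Tet2-Mut. It passed in Tet2-KO without either Tet2-Mut clone and without Tet2-KO replicate 2 (adjusted p = 0.0172, 0.0174 and 0.0418), and in Tet2-Mut without Tet2-Mut replicate 1 (-4.78, adjusted p = 0.0046).

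Cox7a1, the heart and muscle form of its subunit (chromosome 7, 30184171 to 30186030), was 339.5, 307 and 225 in Tet2-WT, 199 and 193 in Tet2-Mut and 87.7 and 191 in Tet2-KO. The 4 clones lay below the Tet2-WT libraries, Tet2-KO replicate 1 by the most (log2 fold change against Tet2-WT -1.14 ± 0.32 (SE), adjusted p = 0.0693 in Tet2-KO and -0.55 ± 0.32 (SE), adjusted p = 0.366 in Tet2-Mut). Without Tet2-KO replicate 2 the Tet2-KO value was -1.70 and passed (adjusted p = 0.0119), as it did without Tet2-Mut replicate 1 or 2 (adjusted p = 0.0442 and 0.0452). Cox6b2, the testis form, was 1906, 1651 and 1436 in Tet2-WT, 1537 and 1619 in Tet2-Mut and 1086 and 1683 in Tet2-KO, and only Tet2-KO replicate 1 lay far from the others. Cox4i2, a form known from lung, and Cox7b2, a testis form, were low in every library, at 23.7 to 60.8 and 11.7 to 41.4, and their groups overlapped. Of the common partners, only Cox4i1 passed, in Tet2-KO against Tet2-Mut as given above. Ndufa4 was 4751, 4814 and 4692 in Tet2-WT, 5065 and 4694 in Tet2-Mut and 4696 and 5427 in Tet2-KO, and Cox7a2 was 2953, 3147 and 2879 in Tet2-WT, 3279.8 and 2834 in Tet2-Mut and 2459 and 3349 in Tet2-KO.

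**Figure D2:**
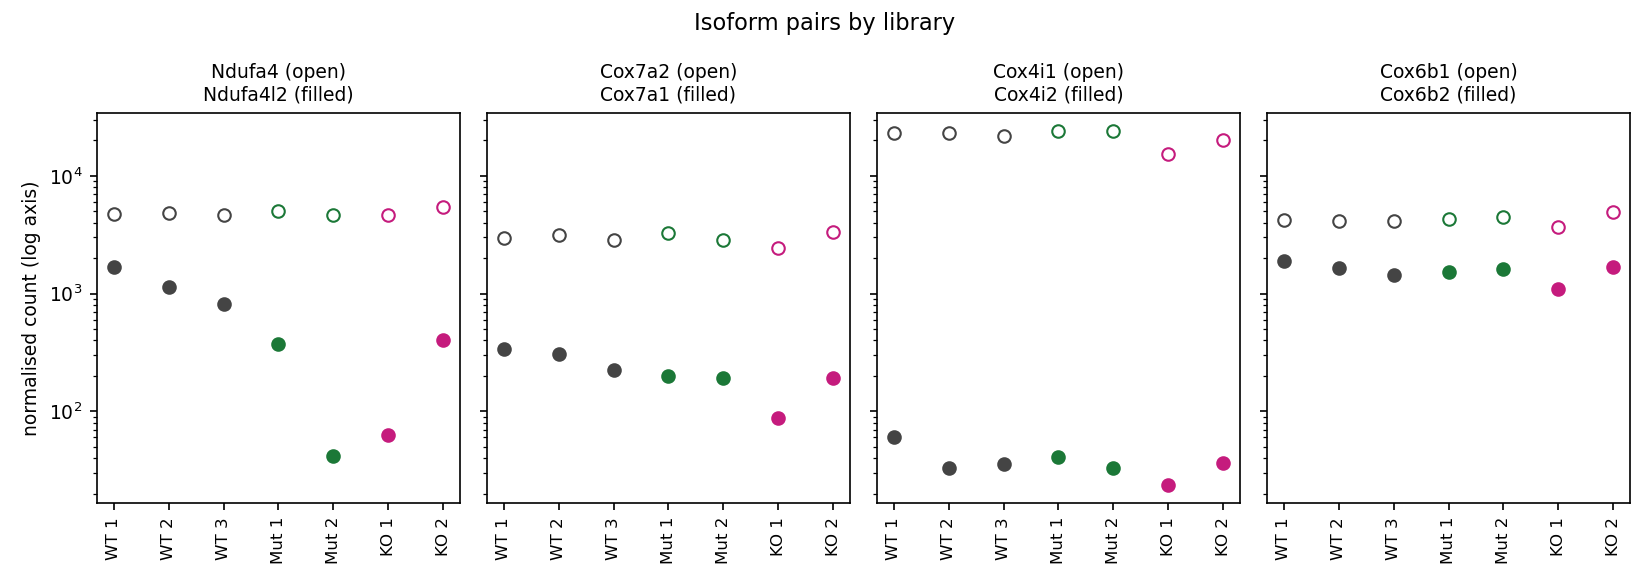
Normalised count (y axis, log scale) of 4 isoform pairs in the 7 libraries (x axis), with the common form open and the restricted form filled, coloured by genotype (grey Tet2-WT, green Tet2-Mut, magenta Tet2-KO). Ndufa4l2 lies at 821 to 1698 in Tet2-WT and 41.5 to 404 in the other clones, and Ndufa4 between 4692 and 5427. Counts are not scaled by length, so heights are compared within a gene.

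In complex V, 17 of 17 intervals lay within ±0.5 in Tet2-KO and 16 in Tet2-Mut against Tet2-WT, and 0 of 17 nuclear subunits were called in any comparison (0, 1 and 0 with an unadjusted p under 0.05; edgeR also called 0, as did DESeq2). The catalytic beta subunit Atp5b was 91706, 93436 and 95791 in Tet2-WT, 101270 and 98646 in Tet2-Mut and 90895 and 93875 in Tet2-KO, with log2 fold changes of -0.02, 0.09 and -0.11. Atp5j, coupling factor 6 of the stalk, was 5001, 5003 and 4654 in Tet2-WT, 5386 and 6048 in Tet2-Mut and 4876 and 5338 in Tet2-KO, with both Tet2-Mut clones above the rest (0.22 ± 0.08 (SE), adjusted p = 0.154), and it passed without Tet2-Mut replicate 1 (adjusted p = 0.0482). Atp5k, the e subunit, was 1114, 1150.4 and 969 in Tet2-WT, 1349 and 1179 in Tet2-Mut and 936 and 1379 in Tet2-KO. Both Tet2-Mut clones lay above all Tet2-WT libraries, and Tet2-KO overlapped both other groups.

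The 12 assembly factors of the Ndufaf and Sdhaf families, which build complexes I and II and do not stay in them, also gave 0 calls by limma (2, 1 and 0 with an unadjusted p under 0.05; edgeR also called 0, as did DESeq2). Ndufaf4 was 1287, 1408 and 1298 in Tet2-WT, 1579.6 and 1523 in Tet2-Mut and 1572 and 1605 in Tet2-KO, all 4 clones lying above Tet2-WT (0.26 ± 0.09 (SE), adjusted p = 0.116 in Tet2-KO). Among the pseudogene and copy rows, Ndufb11b, a retrotransposed copy of Ndufb11 that had no RefSeq match here, was 404, 465 and 566 in Tet2-WT, 708 and 573 in Tet2-Mut and 272 and 352 in Tet2-KO. Tet2-Mut was highest and Tet2-KO lowest, with no overlap between groups, and the row was called lower in Tet2-KO than in Tet2-Mut (-1.04 ± 0.21 (SE), adjusted p = 0.0209). This call ended without Tet2-WT replicate 2 or Tet2-KO replicate 1 (adjusted p = 0.0556 and 0.106). Its parent Ndufb11, on chromosome X, was 2184, 2188 and 2369.9 in Tet2-WT, 2439.5 and 2286 in Tet2-Mut and 2131 and 2548 in Tet2-KO, with log2 fold changes of 0.05, 0.07 and -0.02. Reads of such copies may be shared with the parent gene, so these values are uncertain.

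The called subunits lie on chromosome 8, whose other genes lay in the same directions. Over 664 chromosome 8 genes that are no members and have a mean of at least 100, the median log2 fold change was -0.26 in Tet2-KO against Tet2-WT, 0.29 in Tet2-Mut against Tet2-WT and -0.54 in Tet2-KO against Tet2-Mut. By library this median was 0.29 in both Tet2-Mut clones and -0.28 and -0.24 in the Tet2-KO clones, against -0.04, -0.02 and 0.06 in Tet2-WT. Of the 860 chromosome 8 genes tested, 396 were called lower and 3 higher in Tet2-KO than in Tet2-Mut. Only 3 nuclear members lie there: Ndufa13, Ndufb7 and Cox4i1. Relative to the chromosome's median, the log2 fold changes of Ndufb7 were 0.20, 0.09 and 0.10 in these comparisons, those of Ndufa13 0.24, 0.13 and 0.11, and those of Cox4i1 -0.10, -0.21 and 0.09. Without these genes, 0 of the other 80 nuclear subunits were called in any of the 3 comparisons by limma (4, 4 and 2 had an unadjusted p under 0.05). EdgeR also called 0 of the 80, and DESeq2 called 2, 0 and 1. What underlies the shift of the chromosome was not tested.

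A few members elsewhere lay far from Tet2-WT in a single clone together with their neighbours, the non-member genes within 1 Mb with a mean of at least 100. Atp5a1, Ndufaf3 and the neighbours named were chosen after their values were seen. Ndufb6, a membrane arm subunit of complex I (chromosome 4, 40270591 to 40279421), was 1554, 1678 and 1704 in Tet2-WT, 1932 and 1883 in Tet2-Mut and 1435 and 3123 in Tet2-KO. The second Tet2-KO clone stood apart, 0.93 higher than the mean of Tet2-WT on the log2 scale, and the median of 14 neighbours was 0.60 there, with 13 of them higher than in Tet2-WT on average. Nearby Topors, Ddx58 and Aco1 were also highest in that clone, by 0.63, 0.86 and 0.79. In the fit of Tet2-KO against Tet2-WT, Ndufb6 did not pass (0.36 ± 0.25 (SE), adjusted p = 0.438), and it did without Tet2-KO replicate 1 (0.93, adjusted p = 0.0129).

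Atp5a1, the alpha subunit of complex V (chromosome 18, 77773768 to 77782869), was 63606, 63850 and 64816 in Tet2-WT, 60622 and 87712 in Tet2-Mut and 61003 and 62613 in Tet2-KO. Only Tet2-Mut replicate 2 was high, by 0.45 on the log2 scale, and the median of its 10 neighbours was 0.53 in that clone, with 9 of 10 higher than the average of Tet2-WT. In the second Tet2-KO clone, the chromosome 9 members Ndufaf3 and Uqcrc1 had neighbours below the Tet2-WT mean (median -0.16 over 49 and -0.55 over 40), with the members themselves at -0.75 and -0.14. Uqcrc1 was no lower there than in the first Tet2-KO clone (-0.19, with its neighbours at -0.07). Ndufaf3 was also below the Tet2-WT mean in both Tet2-Mut clones (-0.34 and -0.26), with its neighbours at -0.09 and 0.02. Across 90 nuclear members with at least 5 neighbours, Pearson's r between a member and its neighbours' median was 0.29 and 0.07 in the Tet2-Mut clones and 0.12 and 0.14 in the Tet2-KO clones, and Spearman's rho was 0.22, 0.06, -0.04 and 0.05, so a shared shift was not general among the members. This correlation is across genes of 1 library, and neighbours of close members overlap.

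**Figure D3:**
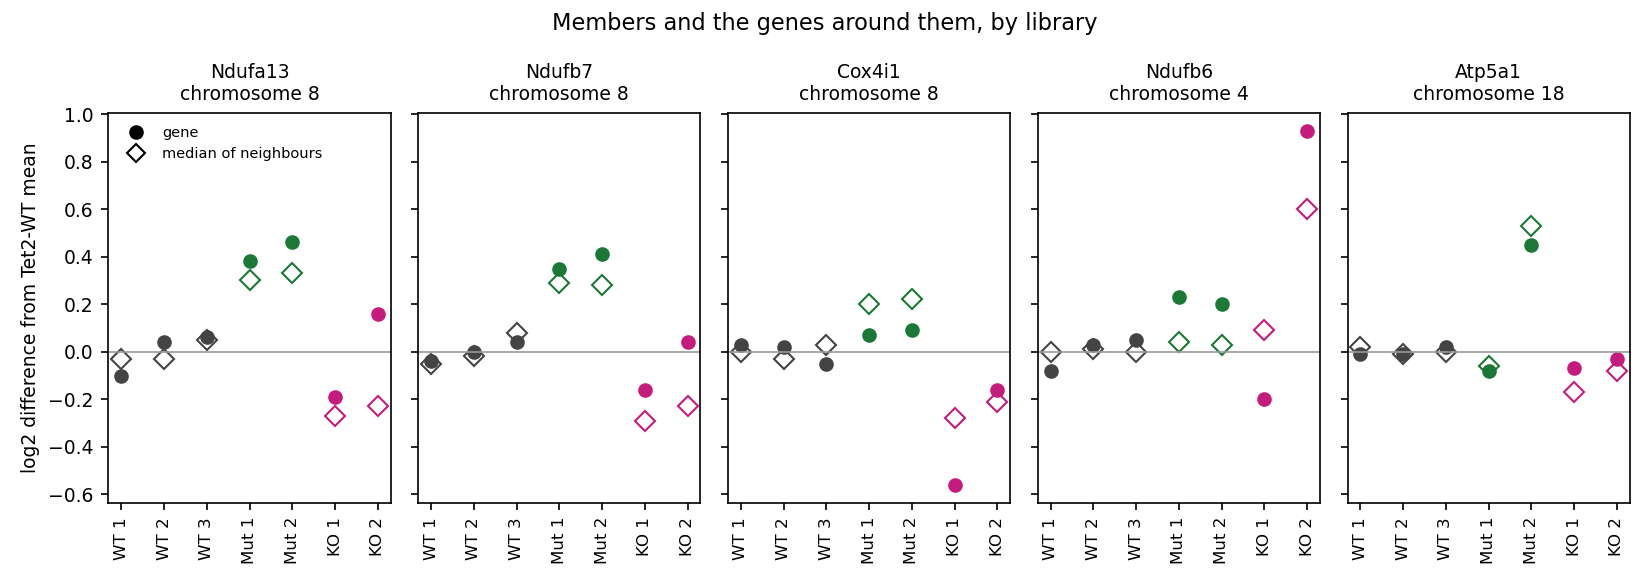
Log2 difference from the Tet2-WT mean (y axis) in the 7 libraries (x axis) for 5 members (filled circles) and the median of their neighbours within 1 Mb (open diamonds), coloured by genotype. The chromosome 8 neighbours lie at 0.20 to 0.33 in Tet2-Mut and -0.29 to -0.21 in Tet2-KO, Ndufb6 and its neighbours are high in Tet2-KO replicate 2, and Atp5a1 and its neighbours in Tet2-Mut replicate 2.

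The Tet2-KO clones differed from each other in opposite directions for the genomes of origin. In Tet2-KO replicate 2, 77 of the 83 nuclear subunits were higher than in replicate 1, with a median log2 difference of 0.26, while 13 of 13 mitochondrial protein genes were lower, with a median of -0.47. Over all genes 48.5% were higher, with a median of -0.01, and over 78 mitochondrial ribosome genes, also nuclear, 56 were higher, with a median of 0.07. By complex, 34 of 37 subunits of complex I, 3 of 4 of complex II, 7 of 8 of complex III, 16 of 17 of complex IV and 17 of 17 of complex V were higher in replicate 2. The counts of 77 and 13 were the same when libraries were scaled by the upper quartile or to the nuclear total. The Tet2-Mut clones showed no such split among the nuclear subunits, 41 of 83 being higher in replicate 2 (median -0.01), with 11 of 13 mitochondrial protein genes higher (median 0.19). Opposite directions of smaller size were also seen among the Tet2-WT libraries. In replicate 3 against replicate 1, 58 of 83 nuclear subunits were lower (median -0.04) and 11 of 13 mitochondrial protein genes higher (median 0.15), and against replicate 2, 61 were lower (median -0.07) and 8 higher (median 0.08).

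These are differences between single libraries and have no replicate test. In sums, the nuclear subunits took 0.951% of all values in Tet2-KO replicate 1 and 1.07% in replicate 2, while the mitochondrial rows took 2.04% and 1.51%. The Tet2-WT libraries held 1.02% to 1.07% and 1.72% to 1.93%, and the Tet2-Mut clones 1.05% and 1.08%, and 1.61% and 1.74%. Both Tet2-KO clones were thus outside the Tet2-WT range for the mitochondrial share, replicate 1 above and replicate 2 below. ESC markers differed in the direction of the nuclear subunits (median -0.27 in replicate 1 and 0.03 in replicate 2 relative to the Tet2-WT mean). Of the 12, 10 were higher in replicate 2 than in replicate 1 (median 0.20). Fibroblast markers went the other way, in the direction of the mitochondrial protein genes, with 16 of 17 lower in replicate 2 (median -0.60). The part of both marker sets in the difference was not tested. The median over the nuclear subunits in Tet2-KO against Tet2-WT was 0.09 without replicate 1 and -0.16 without replicate 2, and for the mitochondrial protein genes -0.31 and 0.16.

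**Figure D4:**
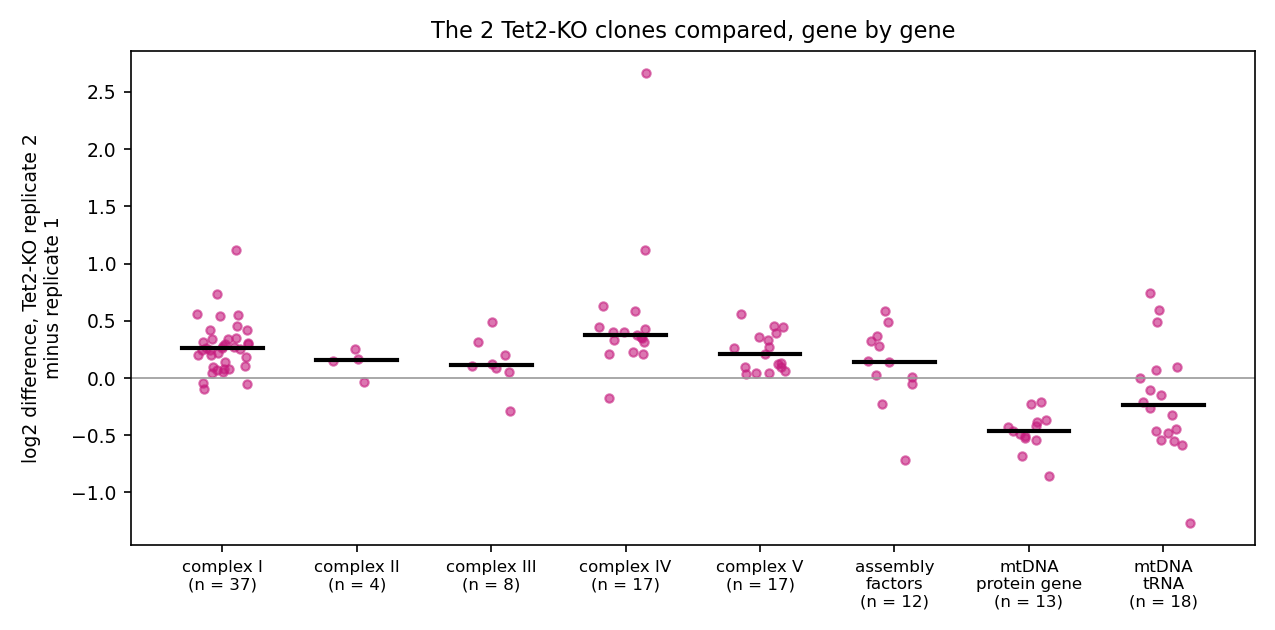
Log2 difference of Tet2-KO replicate 2 minus replicate 1 (y axis) for each member, 1 point per gene with a bar at the median, by complex or class (x axis, with the number of genes). Nuclear subunits lie mostly above 0, 77 of 83, and all 13 mitochondrial protein genes below it.

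The mitochondrial protein genes encode core subunits of complexes I, III, IV and V. None of the 13 was called in any comparison by limma (1, 0 and 0 with an unadjusted p under 0.05; edgeR also called 0, as did DESeq2), and their median log2 fold change was -0.06 in Tet2-KO and -0.09 in Tet2-Mut against Tet2-WT, and 0.04 between these genotypes. mt-Co1, the catalytic subunit of complex IV, was 419910, 435950 and 466860 in Tet2-WT, 412570 and 418640 in Tet2-Mut and 497560 and 372700 in Tet2-KO, so that the Tet2-KO clones were the highest and the lowest of the 7 libraries. mt-Cytb, the only mitochondrial subunit of complex III, was 79953, 89078 and 103800 in Tet2-WT, 85565 and 108860 in Tet2-Mut and 116800 and 84537 in Tet2-KO. mt-Nd6, the only protein gene transcribed from the light strand, was 26896, 37096 and 32550 in Tet2-WT, 26438 and 29940 in Tet2-Mut and 27213 and 23246 in Tet2-KO, and it had the lowest unadjusted p of the 13 in Tet2-KO (-0.34 ± 0.13 (SE), adjusted p = 0.152).

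Levels per kilobase fell into separate ranges along the mitochondrial genome. Over the 7 libraries, the means of mt-Nd1, mt-Nd2, mt-Co1, mt-Nd4, mt-Nd5, mt-Nd6 and mt-Cytb were 28650 to 279600 normalised counts per kilobase. The means of the 6 genes between mt-Co1 and mt-Nd4 (mt-Co2, mt-Atp8, mt-Atp6, mt-Co3, mt-Nd3 and mt-Nd4l) were 105.6 to 336.5, so the nearest values of the ranges differed 85.1-fold. Next to each other in the genome, mt-Co1 and mt-Co2 differed 830.9-fold per kilobase. The nuclear genome of the mouse holds a long, nearly identical copy of this stretch on chromosome 1, and the table had rows there: Gm10222 (24612404 to 24612700, 297 bases, the length of mt-Nd4l) at 399.5, 503 and 384 in Tet2-WT, 259.5 and 318 in Tet2-Mut and 322 and 231 in Tet2-KO, and Gm10925 (24613971 to 24614651, 681 bases, the length of mt-Atp6) at 175, 174 and 199.5 in Tet2-WT, 163 and 214 in Tet2-Mut and 188 and 155 in Tet2-KO. No source used here states how reads matching both places were counted, so the values of the 6 genes are uncertain. Without them, the other 7 protein genes had medians of -0.06, -0.08 and 0.04 in the 3 comparisons, and 7 of 7 were lower in Tet2-KO replicate 2 than in replicate 1 (median -0.43). Neither chromosome 1 row was called in any comparison, and the part of the copy in the low values was not tested.

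**Figure D5:**
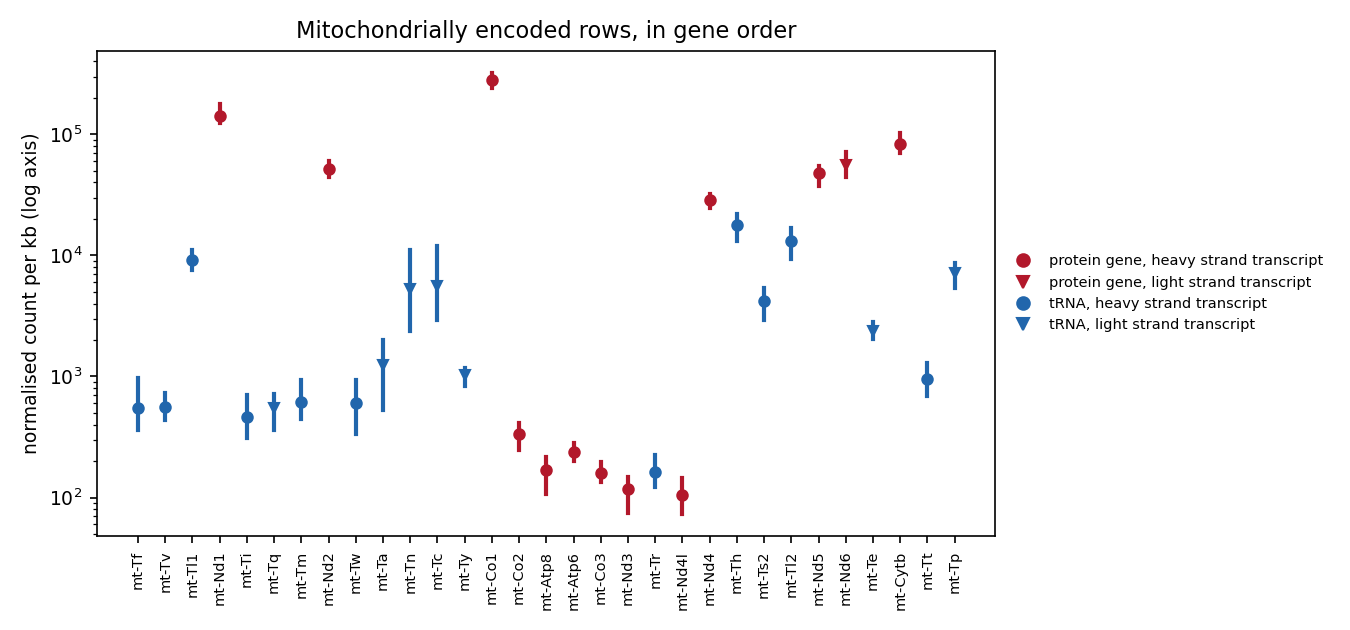
Normalised count per kilobase (y axis, log scale) of the 31 mitochondrial rows in gene order (x axis), red for protein genes and blue for tRNAs, with circles for heavy and triangles for light strand transcripts. Each point is the mean and each line the range of the 7 libraries; the 6 protein genes from mt-Co2 to mt-Nd4l lie between 105.6 and 336.5 and the other 7 at 28650 or above.

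The tRNA rows, 59 to 75 bases long, lay mostly lower in Tet2-Mut and Tet2-KO. Against Tet2-WT, 15 of 18 had negative log2 fold changes in Tet2-KO, with a median of -0.45, and 14 of 18 in Tet2-Mut, with a median of -0.28. In 11 and 10 rows the clones lay below all Tet2-WT libraries, against 22.8% and 19.8% of all genes. Single rows passed the test less often: mt-Tl2 was called lower in Tet2-KO (2.91% of all genes were called lower), and mt-Ta and mt-Tn were called lower in Tet2-Mut (1.98%). EdgeR called the same rows, and DESeq2 called 4 and 5 lower. Between Tet2-KO and Tet2-Mut 0 were called by limma (0 with an unadjusted p under 0.05; edgeR also called 0, as did DESeq2), and the median was 0.03.

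mt-Tl2, a tRNA for leucine in the group next to mt-Nd5, was 1184, 1143 and 1116 in Tet2-WT, 795 and 774 in Tet2-Mut and 899 and 662 in Tet2-KO. All 4 clones lay below Tet2-WT. Its log2 fold change was -0.57 ± 0.13 (SE), adjusted p = 0.0408 in Tet2-KO and -0.55 ± 0.13 (SE), adjusted p = 0.0607 in Tet2-Mut. The Tet2-KO call ended without any 1 of the Tet2-WT libraries or without the second Tet2-KO clone (log2 fold change -0.59 to -0.35, adjusted p 0.113 to 0.147), and the gene passed in Tet2-Mut without Tet2-KO replicate 1 or 2 (adjusted p = 0.0226 and 0.0228). Its neighbour mt-Th, the tRNA for histidine, was 1476, 1373 and 1427 in Tet2-WT, 954 and 996 in Tet2-Mut and 1227 and 881 in Tet2-KO, the clones again below Tet2-WT (-0.45 ± 0.14 (SE), adjusted p = 0.0845 in Tet2-KO and -0.55 ± 0.14 (SE), adjusted p = 0.0639 in Tet2-Mut).

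A further group lies between mt-Nd2 and mt-Co1 and is transcribed from the light strand. mt-Ta, the tRNA for alanine (5018 to 5086 of the mitochondrial genome), was 139, 126 and 109.8 in Tet2-WT, 55.6 and 36.7 in Tet2-Mut and 73.3 and 63.1 in Tet2-KO, mt-Tn, for asparagine (5089 to 5159), was 787, 498 and 401 in Tet2-WT, 236 and 169.8 in Tet2-Mut and 212 and 298 in Tet2-KO, and mt-Tc, for cysteine (5192 to 5257), was 793, 487 and 348 in Tet2-WT, 242 and 194 in Tet2-Mut and 201 and 305 in Tet2-KO. The 4 clones were below all Tet2-WT libraries in each, and Tet2-WT replicate 1 was well above the other Tet2-WT libraries for mt-Tn and mt-Tc. In Tet2-Mut the log2 fold changes were -1.44 ± 0.28 (SE), adjusted p = 0.0351, for mt-Ta, and -1.43 ± 0.29 (SE), adjusted p = 0.0364, for mt-Tn. Both calls ended without Tet2-WT replicate 1, 2 or 3 or Tet2-Mut replicate 2 (adjusted p 0.0606 to 0.181). mt-Tc did not pass (-1.24 ± 0.32 (SE), adjusted p = 0.073), and it did without Tet2-Mut replicate 1 (-1.40, adjusted p = 0.0457). In Tet2-KO the values were -0.86, -1.10 and -1.04 for the 3 rows, with adjusted p of 0.111, 0.0592 and 0.0936. The remaining light strand row of this group, mt-Ty (5260 to 5326), was not low as these were. Per kilobase it was 993.7, 1026 and 1057 in Tet2-WT, 999 and 1181 in Tet2-Mut and 1048 and 833.3 in Tet2-KO, and its groups overlapped.

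Not every tRNA row was low. mt-Te, for glutamate, was 142, 144 and 157 in Tet2-WT, 140.1 and 194 in Tet2-Mut and 179 and 187 in Tet2-KO, with both Tet2-KO clones above Tet2-WT. mt-Tt, for threonine, was 49.1, 63.1 and 50.7 in Tet2-WT, 83.4 and 85.9 in Tet2-Mut and 68.1 and 46.5 in Tet2-KO, highest in both Tet2-Mut clones (0.64 ± 0.30 (SE), adjusted p = 0.26). By transcript strand, the median in Tet2-KO was -0.44 over 11 heavy strand and -0.73 over 7 light strand tRNAs, and in Tet2-Mut -0.27 and -0.39. Of the protein genes beside these groups, none of which passed, mt-Nd2 was 56037, 56339 and 58907 in Tet2-WT, 46199 and 52809 in Tet2-Mut and 62095 and 46022 in Tet2-KO and mt-Nd5 was 83046, 100180 and 99474 in Tet2-WT, 78069 and 88228 in Tet2-Mut and 95640 and 68146 in Tet2-KO, with log2 fold changes of -0.09 and -0.22 in Tet2-KO. Reads of processed tRNAs and of precursors cannot be told apart in these short rows. No source used here states a strand setting of the counting, so reads from the opposite strand cannot be told apart either.

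Other genes of mitochondrial energy metabolism, in lists drawn up for this tissue, were mostly not called by limma. Of 45 assembly factors outside the name pattern, 36 genes of mitochondrial DNA maintenance, transcription and RNA processing and 11 nuclear regulators such as Nrf1 and Gabpa, 0 were called in any of the 3 comparisons by limma (with an unadjusted p under 0.05: 3, 6 and 5; 4, 7 and 5; 3, 3 and 0). EdgeR also called 0 in these lists, and DESeq2 called 1 of the 45 (Coa4, in Tet2-Mut against Tet2-WT), 1, 3 and 1 of the 36, and 1 of the 11 (Esrrb, in Tet2-KO against Tet2-WT). Their medians lay between -0.06 and 0.05. Of the 78 mitochondrial ribosome genes, 1 was called lower in Tet2-KO against Tet2-WT, 2 higher in Tet2-Mut against Tet2-WT, and 1 higher and 1 lower in Tet2-KO against Tet2-Mut. These counts are at or near the shares of all genes called (2.91% lower, 1.44% higher, and 2.64% higher and 3.55% lower), and edgeR called the same genes. DESeq2 called 2 higher and 2 lower, 5 higher and 0 lower, and 1 higher and 3 lower. Over all 17338 genes it called 1992, 1555 and 1808. Mrps31 was 2827, 2858 and 3095 in Tet2-WT, 3249 and 3648 in Tet2-Mut and 1903 and 2123 in Tet2-KO (-0.54 ± 0.09 (SE), adjusted p = 0.0148, against Tet2-WT), and Mrpl34 was 2485, 2416 and 2658 in Tet2-WT, 3662 and 3259 in Tet2-Mut and 2727 and 2773 in Tet2-KO (0.46 ± 0.08 (SE), adjusted p = 0.0279). Both lie on chromosome 8. Mrps31 was lowest in Tet2-KO and Mrpl34 highest in Tet2-Mut, and Mrpl34 in Tet2-KO lay above Tet2-WT.

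In the citric acid cycle and pyruvate dehydrogenase list of 27, 1 gene was called lower in each comparison, close to the 2.91%, 1.98% and 3.55% of all genes called lower. The medians were -0.10, 0.05 and -0.11, and 6, 7 and 9 genes had an unadjusted p under 0.05. In Tet2-KO 6 lay above and 12 below all Tet2-WT libraries (21.9% and 22.8% of all genes), and in Tet2-Mut 7 and 8 (20.9% and 19.8%). In Tet2-KO 4 lay above and 13 below both Tet2-Mut clones (23.3% and 21.5%). Pdk1, a kinase that switches off pyruvate dehydrogenase, was 18240, 16600 and 15800 in Tet2-WT, 15470 and 14260 in Tet2-Mut and 12430 and 13140 in Tet2-KO, lower in both Tet2-KO clones (-0.40 ± 0.08 (SE), adjusted p = 0.0229). Idh2, the NADP-linked isocitrate dehydrogenase of mitochondria, was 7743, 7062 and 6654 in Tet2-WT, 4765 and 5001 in Tet2-Mut and 5259 and 7074 in Tet2-KO, lower in both Tet2-Mut clones (-0.55 ± 0.12 (SE), adjusted p = 0.0441). DESeq2 also called Idh2 there, and edgeR called no gene of the list in that comparison. In the other comparison it was Pdp2, of chromosome 8, which was lower in Tet2-KO than in Tet2-Mut (-0.60 ± 0.12 (SE), adjusted p = 0.0246).

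Among 25 electron carrier and coenzyme Q genes, 1 rose and 2 fell in Tet2-KO against Tet2-WT, 1 fell in Tet2-Mut, and 1 was higher and 3 lower in Tet2-KO than in Tet2-Mut, where 5.91%, 3.43% and 6.19% of all genes were called. EdgeR called the same genes, 2 of which (Coq9 and Dhodh) lie on chromosome 8. DESeq2 called 1 higher and 7 lower, 2 higher and 2 lower, and 1 higher and 3 lower. Over all 17338 genes it called 1992, 1555 and 1808. The limma medians were -0.06, -0.03 and -0.03, and 9, 4 and 7 genes had an unadjusted p under 0.05. In Tet2-KO 3 lay above and 11 below all Tet2-WT libraries (21.9% and 22.8% of all genes), and in Tet2-Mut 5 and 6 (20.9% and 19.8%). In Tet2-KO 4 lay above and 9 below both Tet2-Mut clones (23.3% and 21.5%). The forms of cytochrome c, which carries electrons from complex III to complex IV, moved apart. The somatic form Cycs was 3871, 4019 and 3777 in Tet2-WT, 4349 and 4331 in Tet2-Mut and 4531 and 4998 in Tet2-KO, higher in Tet2-KO (0.29 ± 0.07 (SE), adjusted p = 0.0481), while the testis form Cyct was 474, 416 and 371 in Tet2-WT, 299.7 and 225 in Tet2-Mut and 149.7 and 209.9 in Tet2-KO, lower in Tet2-KO (-1.23 ± 0.21 (SE), adjusted p = 0.0165). Ucp2, a carrier of the inner membrane from the uncoupling protein family, was 12230, 11870 and 11480 in Tet2-WT, 6142 and 5104 in Tet2-Mut and 8101 and 9930 in Tet2-KO. It was lower in Tet2-Mut than in Tet2-WT (-1.08 ± 0.10 (SE), adjusted p = 0.00556) and higher in Tet2-KO than in Tet2-Mut (0.68 ± 0.11 (SE), adjusted p = 0.0106), the largest change among the genes of these lists that passed in Tet2-Mut. Coq9, needed for coenzyme Q synthesis and located on chromosome 8, was 1817, 2016 and 2085 in Tet2-WT, 2319 and 2671 in Tet2-Mut and 1353 and 1403 in Tet2-KO, lower in Tet2-KO than in Tet2-WT (-0.51 ± 0.10 (SE), adjusted p = 0.022).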

How the data were processed

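The deposited table held 17342 genes in 7 libraries. Its signal is the number of reads per gene that the authors divided by 1 DESeq2 size factor per library. Per the submitters' processing notes, trimming used Trim Galore 0.6.5, alignment tools included STAR 2.7.3a, counting tools included featureCounts, and the build was mm10. Neither the annotation nor a strand setting is stated in the sources used here. Each library's values are multiples of what 1 read is worth, and dividing by it gave back whole reads (100% within 0.01 reads). Differences were tested with limma 3.58.1 (R 4.3.3) on log2(value + 1), for 17338 genes reaching 10 in at least 2 libraries, in 1 model of all 7 libraries with a prior following the mean (4 residual and 5.03 prior degrees of freedom) with p-values adjusted by Benjamini-Hochberg to a threshold of 0.05. The log2(value + 1) scale understates fold changes of low genes. The p-values rest on 1 spread per gene shared by all groups of these samples and clones. Tet2-WT libraries lay closer together than the clones. The standard deviation of log2 ratios was 0.45 to 0.511 between Tet2-WT libraries, 0.678 between Tet2-Mut clones and 0.593 between Tet2-KO clones. The error used for the clones may thus be too small. EdgeR 4.0.16, DESeq2 1.42.0 and other settings were alternatives, and the fit was tested on simulated data. For Tet2-KO against Tet2-WT, Tet2-Mut against Tet2-WT and Tet2-KO against Tet2-Mut, it recovered 0%, 10% and 2% of 1.25-fold changes. Recovery was 42%, 28% and 20% for 1.5-fold and 68%, 80% and 58% for 2-fold changes, so small changes can be missed. Of the simulated calls, 4.67%, 10.83% and 7.61% were false. In both comparisons with Tet2-Mut this share was above the threshold of 0.05. The counts without chromosome 8 and the rescaling of the Tet2-KO clones were chosen after seeing the data. RefSeq GRCm38.p6 gave positions for 131 of the 132 members and the promoter sequences. The members, lists and rule for named genes were chosen with earlier results of these data known. The rule takes called members, mitochondrial rows, isoform pairs, the highest and lowest member of each complex by mean, members on chromosomes whose median moved by over 0.1, the 3 highest and 3 lowest fold changes per comparison, Tet2, and up to 3 called genes per list and comparison. Atp5a1, Atp5j, Cox7c, Ndufaf3, Ndufb11, Ndufs1, Ndufv3, Sdhd, the genes beside Ndufb6 and the chromosome 1 rows were chosen after their values or sequences were seen. The bisulfite and CUT&Tag samples were not analysed here.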

Additional observations from a re-analysis of the deposited data

How the results depend on the processing

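The number of members called depended on the setting, and the sign of values that were not called could change with the library left out. In Tet2-KO against Tet2-WT, Ndufb6 ran from -0.20 to 0.93 and mt-Co1 from -0.24 to 0.18. Others kept their sign, such as Cox4i1 (-0.56 to -0.16). For Tet2-KO against Tet2-WT, Tet2-Mut against Tet2-WT and Tet2-KO against Tet2-Mut, with 1, 3 and 3 called, fits of only the groups compared called 7, 6 and 0, DESeq2 called 8, 7 and 5, and a prior without a trend called 0, 0 and 0. Over fits leaving out 1 library each, where a lone clone is assumed to vary like the other groups, the counts ran from 0 to 6, 0 to 8 and 0 to 6. In the same fits the nuclear subunit median ran from -0.16 to 0.09, 0.03 to 0.06 and -0.19 to 0.08, and the mitochondrial protein gene median from -0.31 to 0.16, -0.21 to -0.07 and -0.18 to 0.26, with the ends of the Tet2-KO ranges set by leaving out a Tet2-KO clone. Over 156 fold changes of named members and 19 alternatives (2952 values), 52 lost their call, 55 gained one and 0 called values changed sign. With the replicate number as a block, 0, 0 and 0 members were called, and the medians were -0.05, 0.03 and -0.06 for the nuclear subunits and -0.07, -0.14 and 0.04 for the mitochondrial protein genes. Same-numbered libraries did not deviate together (correlations from -0.073 to 0.087). In a group of 2 the deviations from the mean mirror each other, so few of these correlations are independent. They cannot exclude that the numbers pair the samples. Over the whole table, with 1025, 594 and 1074 genes called, the block left 15, 7 and 467, the prior without a trend 19, 0 and 10, the fits of only the groups compared gave 2153, 901 and 0, and DESeq2 gave 1992, 1555 and 1808. Scaling to the nuclear total changed the split of Tet2-Mut against Tet2-WT from 250 higher and 344 lower to 172 and 449. Without Tet2-WT replicate 1, 2 or 3, Tet2-KO against Tet2-WT gave 94, 98 and 85 calls. The causes of these changes were not tested.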
